A study of Mus musculus with 14 samples.

Results

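Krt12, Krt10, Gdpd3 and Foxf2 are 4 of the 8251 genes that the array annotation names singly, and the members were picked because their levels are higher at the later stages of medulloblastoma formation. They are read by 5 of 12422 probe sets, 2 of them for Krt10. The choice used the measured levels of all 3 stages, so the stage differences of the members are given as a description, without p-values, and counts of calls among them follow from the choice.

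Gene expression was measured on 14 arrays of cerebellar cells from patched+/- mice. The GCP group (n = 4) holds granule cell precursors, the dividing progenitors of cerebellar granule neurons, and these mice were 7 days old. The pretumor group (n = 5) holds preneoplastic cells of mice aged 6 weeks, and the tumor group (n = 5) holds cells of mice aged 10 to 25 weeks that had visible signs of medulloblastoma, a tumor of the cerebellum. All 3 groups share the loss of 1 patched allele, in a colony kept by crosses to 129X1/SvJ, so no group is wild type for this receptor of the hedgehog pathway. Age and stage cannot be told apart in these groups. The cells were freed with papain and DNase and taken from the border between the 35% and 65% Percoll layers, and no flow sorting was done. The labels do not say whether each array of a group is a separate animal. The p-values therefore rest on the spread among arrays, which may be technical.

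Keratins are the intermediate filament proteins of epithelial cells, and each filament pairs a type I with a type II chain. Krt12 encodes a type I keratin of the corneal epithelium and Krt10 a type I keratin of the suprabasal epidermis, where it pairs with Krt1. Neural precursors build their intermediate filaments from other proteins such as nestin and vimentin. Gdpd3 encodes a phosphodiesterase that acts on lysophospholipids and can release lysophosphatidic acid, a signalling lipid. Foxf2 encodes a forkhead transcription factor of mesenchyme that is known in the brain from pericytes, the cells that wrap capillaries.

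Krt12 and Krt10 lie side by side among the type I keratin genes of mouse chromosome 11, with 0 protein-coding genes between them in the reference gene table. Their promoters are shown because both of these neighbours were higher at the later stages while the keratin genes around them stayed in the low band of values. Each runs from 250 bases before to 50 bases after the annotated start, as given by RefSeq for GRCm38.p6, at chr11:99422210-99422509 for Krt12 and chr11:99389315-99389614 for Krt10, both on the minus strand and written 5′ to 3′. Capitals mark matches, on either strand, to the motifs searched.
Krt12 promoter: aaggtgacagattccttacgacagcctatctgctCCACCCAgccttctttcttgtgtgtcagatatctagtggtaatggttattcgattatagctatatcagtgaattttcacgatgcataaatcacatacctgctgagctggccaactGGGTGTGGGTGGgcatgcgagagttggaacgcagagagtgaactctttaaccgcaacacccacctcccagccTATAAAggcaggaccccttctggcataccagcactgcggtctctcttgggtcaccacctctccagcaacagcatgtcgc
Krt10 promoter: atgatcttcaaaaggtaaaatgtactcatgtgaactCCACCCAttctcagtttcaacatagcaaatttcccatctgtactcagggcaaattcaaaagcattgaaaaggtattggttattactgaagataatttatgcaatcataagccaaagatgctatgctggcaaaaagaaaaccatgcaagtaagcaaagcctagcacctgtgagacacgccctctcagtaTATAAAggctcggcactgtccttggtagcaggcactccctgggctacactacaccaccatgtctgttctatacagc
Both hold the TATA box letters TATAAA, 29 bases before the start in Krt12 and 26 bases before it in Krt10, and 13.62% of the 32817 promoters of 300 bases in the table hold them. Both hold the Gli letters CCACCCA, at -216 in Krt12 and -214 in Krt10, and Krt12 holds them again in reverse (TGGGTGG) at -96. These letters occur in 9.306% of all promoters. In Krt12 the KLF letters CACACCC occur in reverse (GGGTGTG) at -101, where they overlap the second Gli match, and 7.953% of promoters hold them. The AP-1 letters TGANTCA (7.813% of promoters) and the forkhead letters TGTTTAC (3.647%) were not in either window. None of these 5 motifs was in the promoter windows of Gdpd3 or Foxf2. The windows of Krt12 and Krt10 had a GC content of 50.33% and 42.0%, against 64.33% in Gdpd3, 71.33% in Foxf2 and a median of 52.67% over all promoters. A match describes the letters and shows no binding.

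Levels below are the deposited intensities, or their log2 values as group mean ± SD (n = 4 for GCP and 5 for the other groups). Of all values, 70.5% lay under an intensity of 16, in a narrow low band, and a fold against a group mean in this band is given as "at least", computed against 16. In such dissociated tissue, fewer cells of a type and less RNA per cell cannot be told apart. Array medians lay between 4.12 and 4.39, and the mean correlation of an array with others of its group lay between 0.985 and 0.996. That correlation was lowest for tumor 2 and tumor 3 (both 0.985), and in its own group for pretumor 3 (0.990). The GCP arrays may form 2 pairs, 1 with 2 and 3 with 4, which was not tested. Values without tumor 2, tumor 3 or pretumor 3, or with each of these GCP pairs averaged, are therefore given where they matter.

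Krt12, the corneal keratin, was in the low band on every GCP array and well above it on every later array. Its intensity was 7.14, 12.9, 6.38 and 10.2 on GCP arrays 1 to 4. It was 178, 194, 239, 125 and 164 on pretumor arrays 1 to 5, and 146, 396, 442, 363 and 232 on tumor arrays 1 to 5. No pretumor or tumor array overlapped the GCP arrays, whereas tumor 1 lay below 4 of the 5 pretumor arrays, so the later groups overlapped. On the log2 scale the Krt12 means of GCP, pretumor and tumor samples were 3.14 ± 0.47, 7.46 ± 0.34 and 8.19 ± 0.66. Pretumor exceeded GCP by 4.32, or at least 11-fold, and tumor exceeded GCP by 5.06, or at least 18.3-fold. The step from pretumor to tumor was 0.73, about the size of the SD among tumor arrays. The tumor mean was 8.09 ± 0.71 without tumor 2 and 8.05 ± 0.66 without tumor 3.

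Krt10, the epidermal keratin, differed from the other members in that it was not in the low band at the GCP stage. Probe set 94321_at read 191, 192, 231 and 187 on GCP arrays 1 to 4. It read 676, 1023, 1161, 684 and 759 on pretumor arrays 1 to 5, and 1924, 2808, 2807, 2062 and 1390 on tumor arrays 1 to 5. The 3 groups did not overlap at any step: the lowest tumor array, at 1390, lay above the highest pretumor array, at 1161, and 1.01% of all probe sets had every tumor array above every pretumor array. The group means were 7.64 ± 0.14, 9.71 ± 0.36 and 11.05 ± 0.42 in GCP, pretumor and tumor samples. Pretumor exceeded GCP by 2.07 on the log2 scale (4.21-fold), tumor exceeded GCP by 3.41 (10.7-fold), and tumor exceeded pretumor by 1.34 (2.53-fold). Krt10 is not known as a gene of granule cell precursors, yet its reading in GCP lay above the low band on all 4 arrays.

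The other Krt10 probe set, 162121_at, disagreed with the first. It lay between 2.20 and 2.90 on all 14 arrays, in the low band, with log2 means of 1.30 ± 0.01, 1.37 ± 0.11 and 1.32 ± 0.03 for GCP, pretumor and tumor samples. The rise of Krt10 therefore rests on 1 of its 2 probe sets, and which of them reads the gene's transcript was not tested.

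Gdpd3, the lysophospholipid phosphodiesterase, was in the low band on every GCP array, tightly grouped in the pretumor samples and widely spread in the tumor samples. Its intensity was 4.21, 7.36, 7.61 and 6.87 on GCP arrays 1 to 4. It was 63.7, 51.5, 48.5, 48.6 and 60.5 on pretumor arrays 1 to 5, and 51.0, 642, 63.3, 200 and 187 on tumor arrays 1 to 5. Tumor 1 and tumor 3 lay within the pretumor range, tumor 4 and tumor 5 lay above it, and tumor 2 was the highest array. The highest tumor array was 12.6 times the lowest, against 1.32 times among pretumor arrays. Its log2 means were 2.67 ± 0.40 for GCP, 5.76 ± 0.18 for pretumor and 7.24 ± 1.47 for tumor arrays. Pretumor exceeded GCP by 3.10 (at least 3.39-fold) and tumor exceeded GCP by 4.57 (at least 9.42-fold). The difference of 1.48 between tumor and pretumor equalled the SD of the tumor arrays. Without tumor 2 the tumor mean was 6.71 ± 1.03, and tumor exceeded GCP at least 6.55-fold. Without tumor 3 these were 7.55 ± 1.49 and at least 11.7-fold.

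Foxf2, the forkhead factor, was in the low band on every GCP array, close to the floor of 2.46, and was higher on every later array. Its intensity was 2.93, 3.86, 2.64 and 3.47 on GCP arrays 1 to 4. It was 18.9, 33.9, 14.6, 21.9 and 20.3 on pretumor arrays 1 to 5, so that pretumor 3 was still in the low band, and 55.4, 27.5, 53.1, 77.3 and 47.4 on tumor arrays 1 to 5. Tumor 2 lay below the highest pretumor array and the other 4 tumor arrays lay above all pretumor arrays. The means were 1.67 ± 0.25, 4.40 ± 0.44 and 5.63 ± 0.54 in GCP, pretumor and tumor samples. Pretumor exceeded GCP by 2.72, but only at least 1.32-fold once the GCP level is set at 16, and tumor exceeded GCP by 3.96 (at least 3.09-fold). Tumor exceeded pretumor by 1.23 (2.35-fold).

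**Figure D1:**
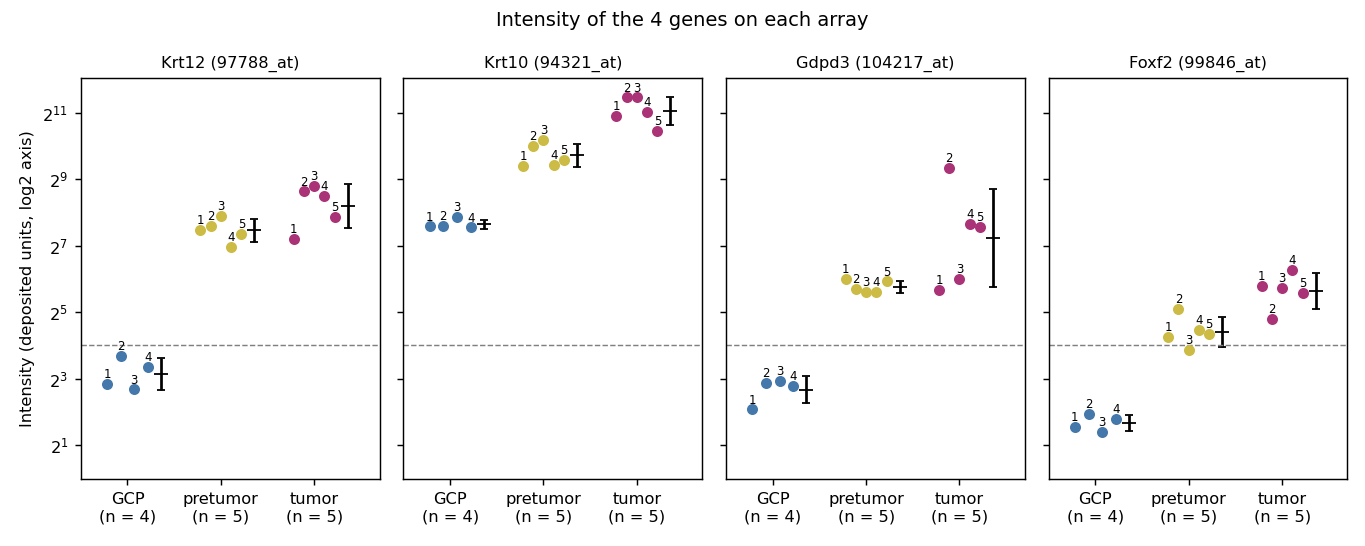
Intensity of Krt12, Krt10 (probe set 94321_at), Gdpd3 and Foxf2 on a log2 axis for each GCP, pretumor and tumor array, with array numbers above the points and the mean ± SD of log2 values beside each group. The dashed line marks 16: all GCP points of Krt12, Gdpd3 and Foxf2 lie below it, and all GCP points of Krt10 lie above it.

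By limma with Benjamini-Hochberg adjustment over all probe sets, 4 of the 5 member probe sets were called higher in pretumor than in GCP samples, as were 1.67% of all probe sets. The same 4 of 5 were called higher in tumor than in GCP samples (1.41% of all probe sets). Both calls together were made for 88 probe sets, or 0.708%. In tumor against pretumor samples 1 of 5, that of Krt10, was called higher (0.209%). Every pretumor and tumor array lay above every GCP array for these 4 probe sets and for 1.63% of all probe sets. Since the members were chosen on these contrasts, nothing is read from the counts. With the GCP pairs averaged, 3 of 5 were called higher in pretumor than in GCP samples, Gdpd3 no longer among them.

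A switch from the low band on every GCP array to 16 or more on every tumor array was seen for 13 probe sets, or 0.105% of all, and those of Krt12, Gdpd3 and Foxf2 were among them. Adding the condition that every pretumor array also reach 16 left 9 probe sets (0.0725%), among them Krt12 and Gdpd3, while Foxf2 left through pretumor 3. The other 7 were Ell2, an elongation factor of transcription, Fosb, an AP-1 subunit, Rgs16, a regulator of G-protein signalling, Tiparp, an ADP-ribosyltransferase, Pik3r1, a subunit of PI3 kinase, Nr1d2, a nuclear receptor of the circadian clock, and Il17ra, a cytokine receptor. These 7 were named after their values were seen.

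The members did not share one order of arrays within a group. Among tumor arrays the highest was tumor 3 for Krt12, tumor 2 for Krt10 and Gdpd3 and tumor 4 for Foxf2, and tumor 2, the highest for Gdpd3, was the lowest for Foxf2. Tumor 1 was the lowest for both Krt12 and Gdpd3, and tumor 5 the lowest for Krt10. Among pretumor arrays, pretumor 3 was the highest for both keratins and the lowest for Gdpd3 and Foxf2. The largest deviation of an array from its group mean was 2.09 on the log2 scale, for Gdpd3 in tumor 2, against at most 0.61 in size for any Krt10 array.

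**Figure D2:**
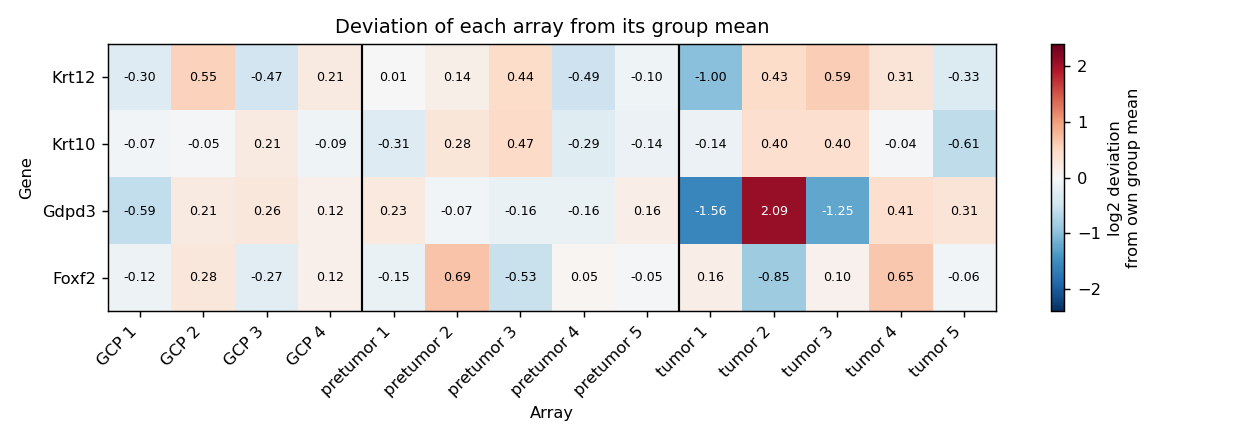
Deviation of each array from the mean of its own group (log2 units, colour and printed value) for Krt12, Krt10 (94321_at), Gdpd3 and Foxf2, with lines between the GCP, pretumor and tumor arrays. Gdpd3 varies most among tumor arrays, from -1.56 in tumor 1 to 2.09 in tumor 2, and tumor 2 has opposite signs in Gdpd3 and Foxf2.

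No other keratin moved with Krt12 and Krt10 past the test in the main fit. The other keratin genes measured were 31, read by 47 probe sets. With each gene taken by its probe set with the highest mean, limma called 0 of the 31 in each of the 3 contrasts. This compares with 5.24% of all genes in pretumor against GCP, 5.62% in tumor against GCP and 1.09% between tumor and pretumor. Of all genes, 1.99%, 1.7% and 0.133% were called higher in these contrasts. At an unadjusted p under 0.05, 1 was higher and 0 lower in pretumor than in GCP, 0 and 0 in tumor than in GCP, and 4 higher and 2 lower in tumor than in pretumor samples. Without GCP 3 or without pretumor 4, 1 keratin was called in pretumor against GCP and 1 in tumor against pretumor. All 31 genes had every group mean under 16, as had 5122 of the 8251 genes measured, so the shares of all genes come from a brighter set. None of the 47 probe sets reached 16 on any array, and the highest value was 8.45, for Krt18, a keratin of simple epithelia. Krt1, the type II partner of Krt10 in the epidermis, lay between 2.90 and 3.57 on all arrays. Krt5 and Krt14, the keratin pair of basal epithelial cells, lay between 3.16 and 4.09 and between 2.90 and 3.63. The intensities of the 31 genes summed to 108.5 to 115.4 on GCP arrays, 106.4 to 117.7 on pretumor arrays and 109.9 to 116.9 on tumor arrays, so the ranges of the groups overlapped.

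**Figure D3:**
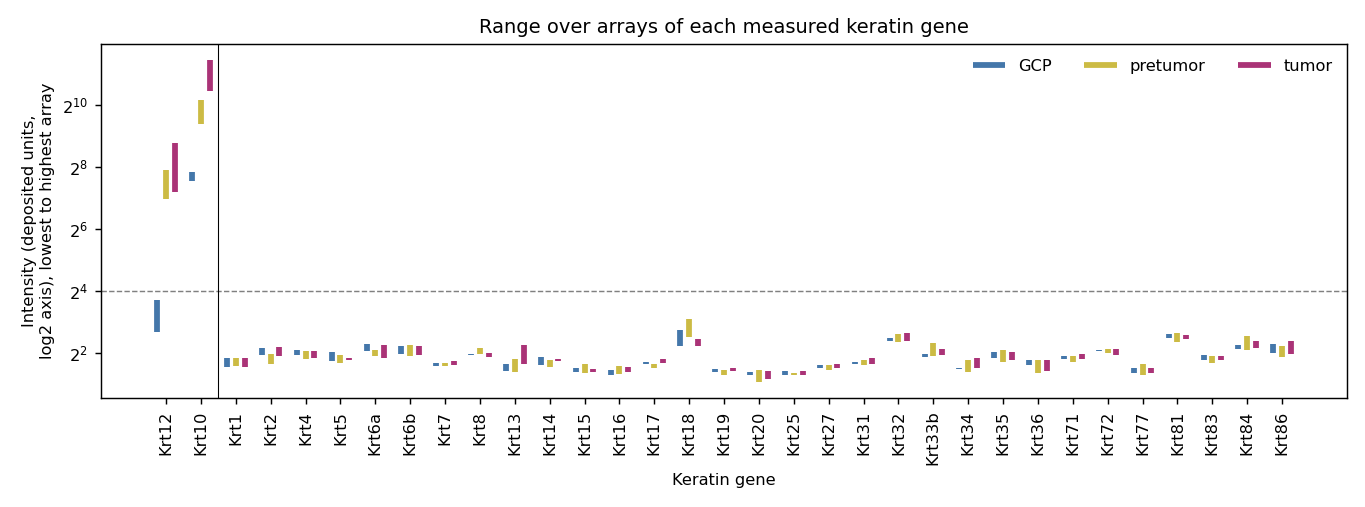
Lowest to highest intensity over the arrays of each group (log2 axis) for Krt12, Krt10 (94321_at) and the other 31 measured keratin genes, each by its probe set with the highest mean. The dashed line marks 16; only the bars of Krt12 in pretumor and tumor samples and of Krt10 in all 3 groups lie above it.

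Other epithelial programmes were likewise near the bottom of the scale. Of 22 genes of the cornified envelope and epidermal differentiation, limma called 0 in each contrast. At an unadjusted p under 0.05 there were 1 higher and 2 lower in pretumor against GCP, 0 and 1 in tumor against GCP, and 1 and 1 in tumor against pretumor. Only Dsc2, a desmosomal cadherin, reached 16, with 90.7 on tumor 3 alone and at most 5.72 on every other array. Its probe set carries the suffix that the array maker gives to probe sets shared by a sequence family, so its reading is uncertain, and the second Dsc2 probe set was at most 3.81 on every array. The 21 genes of epithelial junctions and polarity were all in the low band on every array, with 0 called higher in any contrast. Lower calls numbered 1 in pretumor and 2 in tumor against GCP, and 1 in tumor against pretumor. These made 4.76%, 9.52% and 4.76% of the list, against 5.24%, 5.62% and 1.09% of all genes. With values floored at 16, 0 were called against GCP. Cdh1, the cadherin of epithelial junctions, lay between 4.30 and 6.49 and Epcam, an epithelial surface protein, between 2.20 and 3.10.

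Of 12 genes of corneal epithelium and stroma, 0 were called higher in any contrast. There were 1 higher and 2 lower in pretumor against GCP at an unadjusted p under 0.05. The same limit gave 0 and 3 in tumor against GCP, and 0 and 1 in tumor against pretumor. Pax6, a factor of both the cornea and granule cell precursors, was lower in pretumor than in GCP samples (8.80 ± 0.75 against 10.54 ± 0.21, limma adjusted p = 0.0108) and in tumor than in GCP samples (8.31 ± 0.33, adjusted p = 0.00214). The pretumor call ended when the GCP pairs were averaged (adjusted p = 0.114). Clu, a secreted chaperone, read 44.9 to 127.3 on pretumor arrays, above the 7.95 to 25.6 on GCP arrays, without a call. It was lower in tumor than in pretumor samples (3.12 ± 1.12 against 6.31 ± 0.65, adjusted p = 0.0169), but not once pretumor 1 or tumor 4 was left out. Aldh3a1, an abundant enzyme of the corneal epithelium, stayed in the low band, with log2 means of 1.64 for GCP, 1.63 for pretumor and 1.71 for tumor arrays. Of the 12 genes, 7 had every group mean under 16, and 5 did not: Pax6, Clu, Aldh1a1, Tkt and Lum. Aldh1a1 read 65.3 to 83.7 on GCP, 26.3 to 61.0 on pretumor and 20.2 to 51.6 on tumor arrays. In the same order Tkt read 220.1 to 236.0, 158.5 to 215.0 and 134.7 to 254.5. Lum read 50.8 to 124.6, 9.33 to 27.0 and 10.7 to 139.5.

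Epithelial transcription factors moved in both directions. Of 21 measured, 1 rose and 5 fell in pretumor against GCP, and 2 rose and 6 fell in tumor against GCP. These calls made 28.57% and 38.1% of the list, against 5.24% and 5.62% of all genes. With values floored at 16 the number called was 3 in pretumor and 4 in tumor samples. The median differences were 0.01 and 0.04, against -0.01 and 0.00 over all genes. In tumor against pretumor 0 rose and 1 fell. Klf4, a zinc finger factor needed for the epidermal barrier, rose to 9.13 ± 0.71 in pretumor samples, against 7.09 ± 0.61 in GCP samples (4.10-fold, limma adjusted p = 0.01, or 0.0648 with the GCP pairs averaged). It rose to 10.63 ± 0.39 in tumor samples (11.6-fold over GCP, adjusted p = 0.000226). Cebpd, a factor of the acute phase and of epithelial differentiation, rose to 7.10 ± 1.29 in tumor samples, against 4.77 ± 0.43 in GCP samples (adjusted p = 0.0283). It was no longer called when GCP 1, GCP 2, GCP 4 or tumor 2 was left out (adjusted p at most 0.0849), or with the GCP pairs averaged (0.201). Hopx, a small homeodomain protein, fell to 5.38 ± 0.50 in tumor samples, against 7.91 ± 0.17 in GCP samples (adjusted p = 6.56e-05). Tfap2a, Tfap2b and Tfap2c, factors of epidermis and neural crest, were called lower in both later groups within the low band. Trp63, the factor that founds stratified epithelia, lay between 4.85 and 8.94 on all arrays.

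Among the 13 other intermediate filament genes measured, 0 rose and 1 fell in pretumor against GCP and 2 rose and 2 fell in tumor against GCP, with 0 called between tumor and pretumor. The calls against GCP made 7.69% of the list in pretumor and 30.77% in tumor samples, against 5.24% and 5.62% of all genes. The tumor count was 1 with values floored at 16, low probe sets left out or the GCP pairs averaged, and 2 with the groups fitted alone. The pretumor count was 0 with values floored at 16 and 3 with the groups fitted alone. Nes, which encodes nestin of neural progenitors, rose to 8.26 ± 0.92 in tumor samples, against 6.17 ± 0.27 in GCP samples (limma adjusted p = 0.015). The adjusted p was 0.0549 without GCP 4, 0.0615 with tumor and GCP fitted alone and 0.148 with the GCP pairs averaged. The second Nes probe set lay between 2.37 and 2.84 on all arrays. Nefl, the light neurofilament chain, was lower in both later groups within the low band (1.88 ± 0.08 in tumor and 2.11 ± 0.35 in pretumor, against 3.64 ± 0.27 in GCP samples).

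No relative of Gdpd3 was called higher. Of 17 measured genes of glycerophosphodiester and lysophospholipid metabolism, 0 were called in pretumor against GCP (0 higher and 3 lower at an unadjusted p under 0.05). In tumor against GCP 0 rose and 2 fell, and in tumor against pretumor 0 rose and 1 fell. These calls made 11.76% and 5.88% of the list, against 5.62% and 1.09% of all genes. Plpp3, a phosphatase that removes lysophosphatidic acid, fell to 5.01 ± 1.30 in tumor samples, against 7.57 ± 0.35 in pretumor samples (adjusted p = 0.0345) and 7.48 ± 0.23 in GCP samples (adjusted p = 0.0205). The call against GCP ended without any 1 of GCP 2, 3 and 4, and the call against pretumor without any 1 of 10 arrays. Both ended too with the GCP pairs averaged (adjusted p = 0.179 against GCP and 0.0834 against pretumor) and with the compared groups fitted alone (0.101 and 0.141). Gde1, a phosphodiesterase of the same enzyme family, lay between 2.43 and 2.74 on all arrays. Gdpd5, another family member, lay between 7.58 and 10.7 by its brightest probe set.

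The forkhead family gave 0 calls among 25 other measured genes in each contrast in the main fit. Of all genes 5.24% were called in pretumor against GCP, 5.62% in tumor against GCP and 1.09% between tumor and pretumor. Of the 25 genes, 22 had every group mean under 16. In pretumor against GCP 1 was called with the groups fitted alone, without pretumor 4 or without tumor 1. In tumor against GCP 1 was called without pretumor 2, tumor 1 or tumor 3. At an unadjusted p under 0.05 there were 2 higher and 0 lower in pretumor against GCP, 2 and 0 in tumor against GCP, and 1 and 0 in tumor against pretumor. Foxf1, the closest relative of Foxf2, lay between 2.50 and 3.27 on all arrays. Foxa2, a factor of endoderm and floor plate, had the largest difference of the family, at 3.92 ± 1.35 in tumor, 3.86 ± 0.67 in pretumor and 1.92 in GCP samples on the log2 scale, and did not pass the test (adjusted p = 0.0853 against GCP in tumor and 0.0974 in pretumor samples). The intensity of Foxa2 was 3.37 to 4.05 on GCP, 7.09 to 23.8 on pretumor and 4.73 to 40.8 on tumor arrays, so neither later group overlapped GCP. Foxo3, Foxk2 and Foxm1 were the family members with a group mean of 16 or more.

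Of 29 measured genes listed for the cell types that Foxf2 is known from, none was called higher by limma. In this list of pericytes, smooth muscle and mesenchyme, 0 rose and 3 fell in pretumor against GCP, 0 rose and 3 fell in tumor against GCP, and 0 were called between tumor and pretumor. The calls against GCP made 10.34% of the list in each later group, against 5.24% and 5.62% of all genes. The number called against GCP was 5 in pretumor and 6 in tumor samples without tumor 3. It was 1 in each without GCP 4, with the GCP pairs averaged or with values floored at 16. It was also 1 in pretumor samples without GCP 2, and 1 in tumor samples without GCP 1 or tumor 1. The median differences were -0.10 and -0.08 against GCP in pretumor and tumor samples. Col3a1, a collagen of connective tissue, fell to 2.00 ± 0.11 in pretumor and 2.60 ± 0.78 in tumor samples, against 4.64 ± 0.26 in GCP samples (adjusted p = 0.000722 and 0.00345). Pdgfrb, the receptor that marks pericytes, lay between 2.64 and 3.16 on all arrays. Rgs5, another pericyte gene, reached 16 only on GCP 2, at 16.2 by probe set 96180_at, which was at most 3.68 on the later arrays, and its other probe set lay between 3.70 and 5.49 on all arrays. Some genes of the list were high on single tumor arrays without a call. Acta2, the actin of smooth muscle, read 30.8 on tumor 3 and at most 7.92 on the other tumor arrays, against 4.38 to 5.69 in GCP samples. Vtn, which encodes vitronectin, read 50.7 on tumor 3, 24.3 on tumor 2 and 3.80 to 4.28 on the other tumor arrays, against 10.48 to 10.83 in GCP samples. Foxf2 was at 53.1 on tumor 3 and 27.5 on tumor 2. Of 10 endothelial genes, 0 rose and 4 fell in pretumor against GCP and 0 rose and 6 fell in tumor against GCP. These calls made 40% and 60% of the list, against 5.24% and 5.62% of all genes. Of the 10 genes, 7 had every group mean under 16. With values floored at 16 the number called was 1 in each contrast, and with low probe sets left out 1 in pretumor and 3 in tumor samples.

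**Figure D4:**
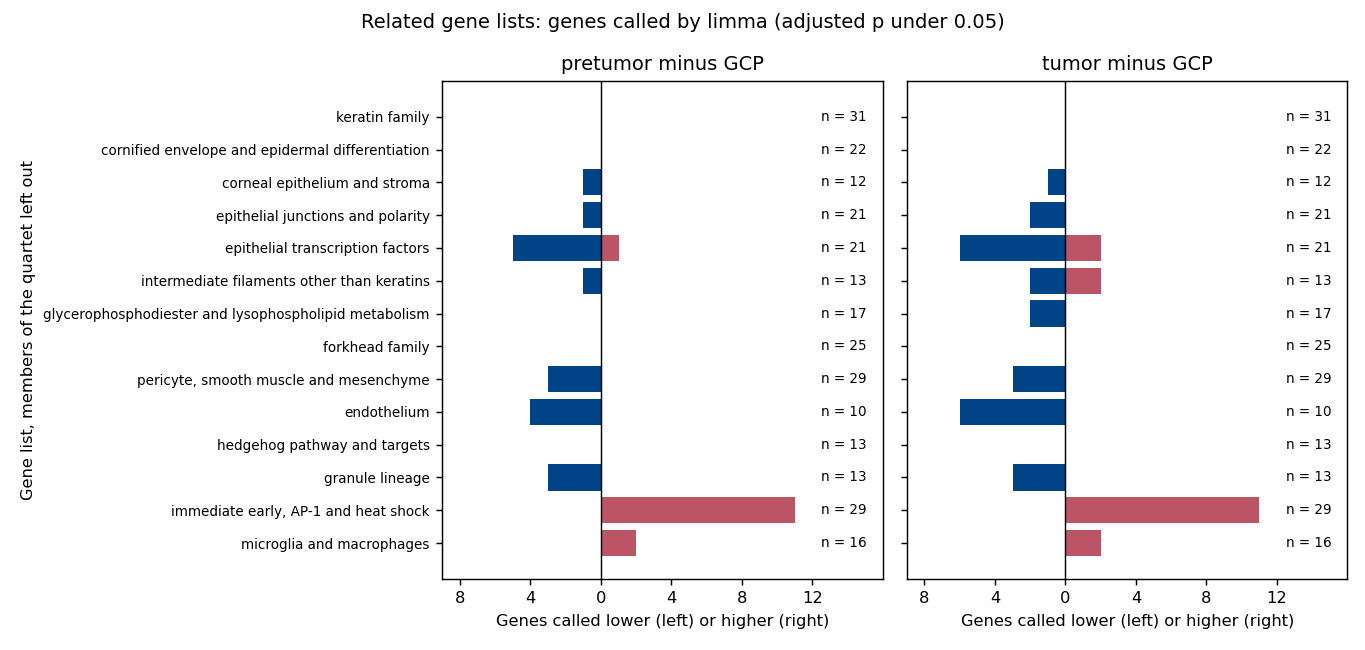
Number of genes called lower (left bars) and higher (right bars) by limma in pretumor minus GCP and tumor minus GCP for 14 gene lists, with the number of measured genes beside each list and the 4 members left out. The bars are absent for the 31 other keratins, the 22 cornified envelope genes and the 25 other forkhead genes, and 11 of 29 immediate early and heat shock genes were called higher in each contrast.

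Several groups of genes that are not epithelial moved between the same groups, and their part in the levels of the members was not tested. Of 29 immediate early, AP-1 and heat shock genes, 11 rose and 0 fell in pretumor against GCP, 11 and 0 in tumor against GCP, and 1 and 0 in tumor against pretumor, where 1.99%, 1.7% and 0.133% of all genes were called higher. With the GCP pairs averaged 6 were called in pretumor and 5 in tumor against GCP, and without GCP 1, GCP 4 or pretumor 2 the pretumor count was 7. Their summed intensity was 41620 to 53020 in tumor and 41370 to 48700 in pretumor, against 20090 to 29430 in GCP samples. Of 16 microglia and macrophage genes 2 rose, Lyz2 and Ctss, and 0 fell in each later group against GCP. The sum of that list was 762.7 to 2236 in tumor and 1018 to 1636 in pretumor, against 298.4 to 660.7 in GCP samples, and 10 of the 16 genes lay below 16 on all tumor arrays. Lyz2, a lysozyme of myeloid cells, stood at 8.46 ± 0.62 in tumor and 7.25 ± 0.51 in pretumor samples, against 4.48 ± 0.93 in GCP samples (adjusted p = 0.000301 and 0.00408). Its second probe set lay between 2.24 and 3.30 on all arrays. A probe set annotated to both Lyz1 and Lyz2 read 3.425 to 5.016 in GCP, 8.459 to 23.58 in pretumor and 25.3 to 197.1 in tumor samples. Ctss, a lysosomal protease, had a tumor call that ended without any 1 of 10 arrays, and its calls in tumor and pretumor samples both ended with the GCP pairs averaged (adjusted p = 0.142 and 0.0596).

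Oligodendrocyte, choroid plexus and blood genes followed other courses. The oligodendrocyte list (10 genes) summed to 215.3 to 329.6 on GCP, 734.6 to 1482 on pretumor and 102.4 to 229.9 on tumor arrays. The choroid plexus, ependyma and meninges list (11 genes) was 1055 to 3873, 5813 to 15190 and 141.5 to 1390, in the same order of stages. In both lists the pretumor range lay above the others, and the tumor and GCP ranges overlapped. Ttr alone made most of the choroid plexus sum on pretumor arrays, at 5081 to 13950. The blood list (8 genes) was 1938 to 4390 on GCP, 762.2 to 3433 on pretumor and 31.88 to 406.6 on tumor arrays. Only Hba-a1 and Hbb-b2 of the blood list reached 16 on any array. The astrocyte list (8 genes) was 9374 to 12960, 1210 to 1924 and 487.7 to 1917. Most of its GCP sum was Fabp7, at 8354 to 11750 on GCP and 586.6 to 1194 on pretumor arrays. In pretumor against GCP 1 gene of the list rose, Aldoc, and 1 fell (25% of the list, against 5.24% of all genes). In tumor against GCP 0 rose and 4 fell (50%, against 5.62%), and 2 were called once the GCP pairs were averaged. Of 13 hedgehog genes 0 were called in any contrast in the main fit. In pretumor against GCP 3 were called with the groups fitted alone, and 1 without tumor 3 or tumor 4. In tumor against GCP 1 was called with the replicate block or without tumor 3. Sfrp1 read 1624 to 2004 on pretumor arrays, above the 535.3 to 815.6 on GCP arrays, and 192.5 to 2658 on tumor arrays, without a call. Of 13 granule lineage genes 0 rose and 3 fell in each later group against GCP. These 3 calls made 23.08% of the granule list, against 5.24% and 5.62% of all genes. With the GCP pairs averaged 0 were called in pretumor and 1 in tumor samples.

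Of 18 measured genes nearest to the members on their chromosomes, 1 rose and 0 fell in pretumor against GCP and in tumor against GCP, and 0 were called between tumor and pretumor. The 1 call makes 5.56% of these genes, near the 5.24% and 5.62% of all genes called in either direction. At an unadjusted p under 0.05 there were 3 higher and 1 lower, 2 and 1, and 0 and 1. Krt25, Krt27 and Krt20, keratins on either side of Krt10 and Krt12, had differences from GCP between -0.04 and 0.05 and stayed in the low band. Foxq1 and Foxc1, the forkhead genes next to Foxf2, were in the low band too. Foxq1 stood at 2.51 in tumor and 2.55 in pretumor, against 2.02 in GCP samples on the log2 scale (adjusted p = 0.0877 and 0.0673). The gene that rose was Wrnip1, which encodes a DNA replication protein, by 0.86 in pretumor and 0.71 in tumor samples (adjusted p = 0.0109 and 0.0268). Its tumor call ended without any 1 of GCP 1, 2 and 3 and tumor 1 (adjusted p at most 0.0821) and with tumor and GCP fitted alone (0.0983), and both calls ended with the GCP pairs averaged (0.102 in pretumor and 0.187 in tumor samples). Beside Gdpd3, Ypel3 differed from GCP by 0.44 in pretumor and 0.09 in tumor samples, without a call.

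**Figure D5:**
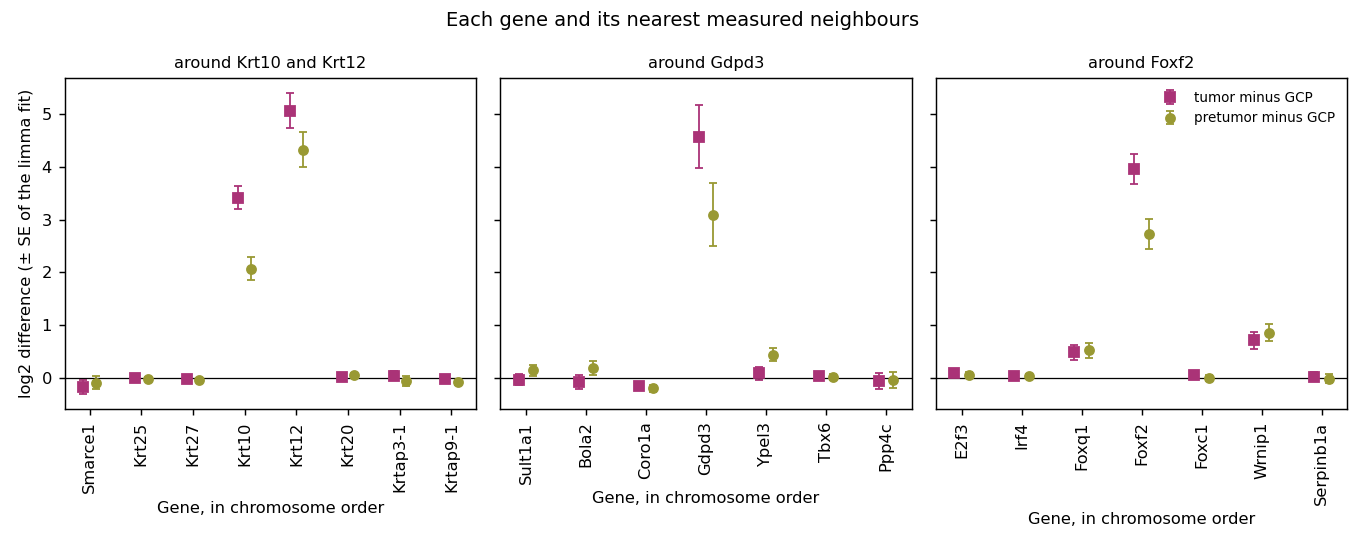
Log2 difference (± SE of the limma fit) of tumor minus GCP (squares) and pretumor minus GCP (circles) for Krt10, Krt12, Gdpd3 and Foxf2 and the measured genes nearest to them, in chromosome order and without a distance scale. The members stand between 2.07 and 5.06, and their neighbours all lie below 0.9, with Wrnip1 the highest at 0.86 in pretumor samples.

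The genes whose log2 levels ran most alike with each member over the 14 arrays were ranked by Pearson's r among the 3125 other genes with at least 1 group mean of 16 or more, with the members left out. Among the members themselves r ran from 0.848, for Gdpd3 with Foxf2, to 0.941, for Krt12 with Krt10, and for the deviations from the group means from -0.416, for Gdpd3 with Foxf2, to 0.529, for Krt12 with Krt10. These r values describe the shared differences between the 3 groups as much as any likeness within a group, and no test was made. Of these other genes, Krt12 ran closest with Prm1 (r = 0.9447), Lyz2 (0.9319), Csrp1 (0.8948), Ugcg (0.8938) and Rnf145 (0.8893). Krt10 ran closest with Lyz2 (r = 0.9563), Klf4 (0.9497), Prm1 (0.9348), Cdk8 (0.9126) and Ugcg (0.9071). Lyz2, Prm1 and Ugcg, which encodes the enzyme that makes glucosylceramide, were on both keratin lists. Gdpd3 ran closest with Fosb (r = 0.9351), Prm1 (0.8930), Rpl13a (0.8903), Zdhhc14 (0.8895) and Noct (0.8782). Foxf2 ran closest with Cadm1 (r = 0.9342), Prm1 (0.9276), Cmtr2 (0.9202), Pald1 (0.9121) and Btbd3 (0.9042).

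Prm1, which encodes a protamine that packs DNA in sperm, was thus on all 4 lists. Its intensity was 255, 218, 287 and 244 on GCP arrays 1 to 4, 910, 777, 795, 819 and 675 on pretumor arrays 1 to 5 and 1170, 1158, 872, 1100 and 789 on tumor arrays 1 to 5. Every later array lay above every GCP array, and the later groups overlapped. The Prm1 probe set, 99589_f_at, carries the suffix for a sequence family, so its gene is uncertain. The probe sets named here for Cadm1, Noct, Gdpd5, Aldh3a1 and Krt27 carry the same suffix and are uncertain in the same way. Fosb, the AP-1 subunit closest to Gdpd3, had its highest tumor values on tumor 4 (914) and tumor 2 (841) and its lowest on tumor 3 (81.3) and tumor 1 (86.0), the arrays on which Gdpd3 was lowest as well. Since Fosb was picked by its r with Gdpd3 over these same arrays, this match adds nothing to that r. Klf4, closest to Krt10 after Lyz2, ran from 1206 to 2362 in tumor and from 319 to 1011 in pretumor, against 90.9 to 239 in GCP samples, and its groups did not overlap. Its other probe set, 161185_i_at, lay between 1.97 and 2.48 on all arrays, so Klf4, like Krt10, Lyz2 and Nes, rests on 1 of the 2 probe sets that name it alone. For Lyz2, the probe set shared with Lyz1 was also higher on every later array than on any GCP array.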

How the data were processed

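One value per probe set and array was deposited by the authors, on a linear intensity scale, for 12488 probe sets and 14 samples; their summary and normalisation steps are not given in the sources used here. Leaving out the 66 control probe sets left 12422. Values were floored at their 10th percentile (2.46) and taken to log2, with no further normalisation. A model of 3 group means was fitted to all 14 arrays with limma 3.58.1 in R 4.3.3 (11 residual and 0.83 prior degrees of freedom), with two-sided p-values adjusted by the Benjamini-Hochberg method over 12422 probe sets and calls at an adjusted p under 0.05. The code was tested on simulated data. Arrays have no read depth; their number limits the precision.

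Symbols came from the array annotation (10833 probe sets with 1, 396 with several and 1193 with none), and 8241 of 8251 symbols were in a gene table of GRCm38.p6. A gene is represented by its probe set with the highest mean, and all probe sets of a member are given. The members and the 18 gene lists were chosen with earlier results of these data known. The genes named are the members, called list members with the largest difference, the member with the highest mean where a list gave no call, the 3 nearest measured genes on each side, and the 5 genes with the highest r. Keratins, forkheads and other list members named without a call were added for their known roles. The limit of 16 for the low band was chosen after seeing the data. Alternatives changed the floor, the offset, the normalisation, the arrays fitted, the replicate block, the GCP pairs and the probe set filter.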

Additional observations from a re-analysis of the deposited data

Results flagged for a closer look

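Within the groups of 4 or 5 arrays, the member probe sets were searched for an array that stands apart, by its gap to the nearest array as a share of the group's range. Of 15 groups 2 were picked out, and chance picks out about 5% of groups. Krt10 (94321_at) in GCP 3 stood 0.87 of the range above the next GCP array, against a limit of 0.829, at an intensity of 231 where the other GCP arrays read 187 to 192. The second Krt10 probe set, 162121_at, had a gap of 1.0 in GCP 3, at 2.48, because the other 3 GCP arrays lay at the floor. Both concern small differences beside those between the stages.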

How the results depend on the processing

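For the 4 member probe sets with a group mean of 16 or more, all 252 values of the log2 differences under the alternatives were positive. The members were picked for their rise, and the alternatives use the same arrays. Krt12, Gdpd3 and Foxf2 also reach a mean of 16 only in the later groups, so nothing is read from these signs. The second Krt10 probe set, 162121_at, is not among these 4, and its difference between tumor and pretumor was -0.045 in the main fit. No called result turned its direction. The sizes depend on the treatment of low values. With a floor at 16, Krt12 exceeded GCP by 3.46 in pretumor and 4.19 in tumor, Gdpd3 by 1.76 and 3.24 and Foxf2 by 0.42 and 1.63. With log2 of the value plus 16 these were 2.94 and 3.63 for Krt12, 1.65 and 2.94 for Gdpd3 and 0.96 and 1.78 for Foxf2. With the floor at 16 only 2 members, not 4, were called higher in pretumor than in GCP, Krt12 and Krt10. With log2 of the value plus 16, and with the GCP pairs averaged, 3 were called, without Gdpd3. In tumor against pretumor the count of members called was 0 with the groups fitted alone, 2 with low probe sets left out and 1 to 2 without single arrays (2 without pretumor 2 or tumor 2).

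The number of probe sets called in pretumor against GCP was 541, with 194 under the floor at 16, 168 with the GCP pairs averaged and 331 to 624 without single arrays. In tumor against GCP it was 571, with 232 under the floor at 16, 335 with the groups fitted alone, 198 with the pairs averaged and 338 to 709 without single arrays. In tumor against pretumor it was 124, with 32, 50 and 69 under these 3 settings and 70 to 148 without single arrays. The lowest counts against GCP came without GCP 4. The cause of these shifts was not tested, apart from the fewer arrays fitted.

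Whether equal replicate numbers pair the samples was not settled. Deviations of same-numbered arrays correlated at -0.273 to 0.51 between GCP and pretumor. The values were -0.307 to -0.041 between GCP and tumor and -0.323 to 0.296 between pretumor and tumor. These mixed values do not decide it. With the replicate block 76 probe sets were called in tumor against pretumor, and counts against GCP were 383 in pretumor and 436 in tumor. Of 102 calls of named genes, 63 ended under at least 1 alternative and 20 with the replicate block, among them both calls of Wrnip1 (adjusted p = 0.0559 in pretumor and 0.095 in tumor) and of Plpp3 (0.0747 against GCP and 0.0928 against pretumor).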
